A study of Mus musculus with 2 samples.

Results

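Ptpn6 encodes SHP-1, a tyrosine phosphatase of blood cells that is recruited to inhibitory receptors and dampens antigen receptor signaling. It was examined together with 8 further genes of tyrosine phosphatase signaling, Ptpn2, Ptpn7, Ptpn11, Ptpn18, Ptpn22, Ptprc, Ptprcap and Ptpn1, which makes 9 of the 31053 genes counted. The Ptpn6 transcript had already been seen to be lower in dendritic epidermal T cells (DETCs) after Skint1 antibody in these same libraries. The gene list was chosen for this reason, so the DETC difference of Ptpn6 is given here as a description and supports nothing. The study also reports lower Ptpn6 by qPCR of sorted DETCs, in measurements not used here. The question was whether the other phosphatase genes differed with Ptpn6.

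Both libraries came from ear epidermis of wild-type (WT) female FVB/NJ mice aged 8 weeks, 7 d after intradermal injection of either isotype control or Skint1 antibody. Skint1 is a keratinocyte surface protein that DETCs engage through their T cell receptor (TCR), and the antibody was given to block it. The sort kept live cells that were CD45+, EpCAM- and MHC-II-, and gave 1 library per treatment, from 1 mouse each as the study counts n. Because cells of 1 library are not replicates, the treatments were compared without a test, and an effect of treatment cannot be told apart from one of library.

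Counts are of UMIs (unique molecular identifiers, each marking 1 captured mRNA). A range of 500 to 2500 genes and a limit of 12% mitochondrial UMIs per barcode left 4242 isotype and 5961 Skint1 antibody cells. The deposited libraries held 27272211 and 32450957 UMIs over all barcodes. DETCs were cells with at least 3 Trdc UMIs, at least 3 UMIs of Cd3d, Cd3e and Cd3g together, and no UMI of Trac, Cd4, Cd8a or Cd8b1. They numbered 3544 and 4945 cells, with 14659876 and 18706191 UMIs and medians of 4027.5 and 3577 UMIs per cell. The gate for αβ T cells (at least 1 Trac UMI and no Trdv4 UMI) took 197 and 213 cells with 800759 and 836438 UMIs. The gate for innate lymphoid cells (at least 3 UMIs of Il7r, Rora and Gata3 together, at most 2 CD3 UMIs and no Trdv4 UMI) took 82 and 139 cells with 382921 and 659467 UMIs. The αβ T and innate gates shared 9 and 14 cells. Among DETCs, 3 cell barcodes occurred in both libraries.

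The DETC gate held the cells it names: Trdv4, the variable segment of the DETC receptor, was detected in 88.4% of its isotype cells and 83.8% of its Skint1 antibody cells. Keratinocyte markers summed to 30.9 and 39.7 CPM in it (counts per 1000000 UMIs of the class), and 5 markers of dermal γδ T cells to 69.5 and 69.8. The same dermal γδ list reached 606 and 564 CPM in the αβ T gate, of which Maf gave 397 and 360. Il17a (64.9 and 126 CPM), 5830411N06Rik (106 and 61.0) and Blk (16.2 and 2.39) were also above their DETC levels. Cd163l1 was at 21.2 and 15.5 CPM, against 21.2 and 28.7 in DETCs. Of the αβ T markers, Cd28 (151 and 171 CPM), Cd6 (149 and 110) and Cd5 (91.2 and 81.3) were high in this gate and at most 2.73 in DETCs. The DETC marker list summed in the αβ T gate to 1276 and 1622 CPM, with Trdv4 at 0 by the gate, Cd7 at 352 and 549 and Fcer1g at 366 and 509. The part of dermal γδ T cells and DETCs in the αβ T values was not tested. The innate gate fitted its name only in part. Of its 7 markers, Kit was at 83.6 and 111 CPM (15.4 and 8.55 in DETCs) and Il2ra at 41.8 and 60.7 (4.43 and 2.25 in DETCs), and the list summed to 125 and 182 CPM against 28.9 and 15.7 in DETCs and 131 and 120 in the αβ T gate, where Il2ra was at 77.4 and 52.6. Il1rl1, Ncr1, Arg1, Eomes and Klrb1c were all at 0 in its isotype cells, and Arg1 and Eomes were at 0 in its Skint1 antibody cells, and the other 3 were at 1.52 to 4.55 CPM there. Keratinocyte markers summed to 449 and 3609 CPM and myeloid markers to 1593 and 2337. It is therefore called the CD3-low gate below.

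Tyrosine phosphatases remove the phosphate that kinases such as Lck and Zap70 add to signaling proteins, and so set both the resting level and the duration of a TCR signal. The classical enzymes share a catalytic loop in which a cysteine, held between a histidine and a later arginine, attacks the phosphate. SHP-1 and its relative SHP-2 (Ptpn11) add a pair of SH2 domains, which dock on phosphorylated inhibitory receptors. The coding bases around this loop are shown for the members whose reference sequence is used here, since they carry the one feature that makes these genes a family. Capitals mark the 24 bases from the histidine codon to the arginine codon, within windows of 60 coding bases.
Ptpn6: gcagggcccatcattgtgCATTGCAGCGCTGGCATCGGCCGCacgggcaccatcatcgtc
Ptpn11: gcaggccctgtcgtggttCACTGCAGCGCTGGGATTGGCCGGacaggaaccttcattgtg
Ptpn1: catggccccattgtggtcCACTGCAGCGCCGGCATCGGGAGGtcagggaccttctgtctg
Ptpn7: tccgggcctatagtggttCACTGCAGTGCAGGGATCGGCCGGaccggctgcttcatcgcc
Ptpn22: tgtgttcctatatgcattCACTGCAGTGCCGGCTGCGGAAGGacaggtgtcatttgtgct
Ptpn18: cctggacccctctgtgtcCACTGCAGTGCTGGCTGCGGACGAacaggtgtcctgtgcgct
Ptprc: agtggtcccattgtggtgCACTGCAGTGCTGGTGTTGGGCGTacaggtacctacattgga

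These are GENCODE vM21 transcripts on GRCm38, and the genome spans given here include introns except for Ptpn1. The windows lie at chr6:124722045-124724982 (minus strand) for Ptpn6, chr5:121143596-121144555 (minus) for Ptpn11, chr2:167974189-167974248 (plus) for Ptpn1, chr1:135139253-135141976 (plus) for Ptpn7, chr3:103876712-103877338 (plus) for Ptpn22, chr1:34470317-34471526 (plus) for Ptpn18 and chr1:138080237-138080862 (minus) for Ptprc. Of the 60 bases, Ptpn11 shared 45 with Ptpn6, the most of the 6 compared, and Ptpn22 shared 30, the fewest. Within the 24 bases in capitals the shared number ran from 16 (Ptpn22) to 20 (Ptpn11). Ptprcap, which encodes a small partner protein of CD45 and not a phosphatase, had 0 matches to the signature in its 197 residues.

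Ptpn6 was the one gene of the list whose DETC ratio between the libraries lay outside the central 95% of all genes. Ptpn2 was also lower after Skint1 antibody, by less, and Ptpn22 and Ptprcap by less still, the latter pair not under every filter. Levels are in CPM, with exact Poisson 95% intervals, and since 3′ counting scores each mRNA once, they do not scale with transcript length. Ptpn6 was at 153 (147 to 160) CPM in isotype DETCs, from 2245 UMIs, and at 78.3 (74.3 to 82.4) in Skint1 antibody DETCs, from 1464 UMIs. The isotype level was 1.96-fold (1.83 to 2.09) the Skint1 antibody level, and the log2 ratio of Skint1 antibody over isotype control was -0.97 (-1.06 to -0.87; exact conditional binomial 95% interval). All intervals given here cover counting error only.

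The position of this ratio among all genes was extreme. Over the 2852 genes at 50 CPM or more in DETCs, both libraries pooled, the median log2 ratio was -0.03, and the central 95% of genes ran from -0.28 to 0.17. Ptpn6 ranked 3 from the lowest. Below it lay Xcl1, a chemokine gene (319 and 96.7 CPM, -1.72), and Tnfrsf9, which encodes the costimulatory receptor 4-1BB (125 and 63.5 CPM, -0.97, an interval of -1.08 to -0.87 that overlaps that of Ptpn6). Next above it were the heat shock gene Hsph1 (-0.83), Tnfrsf13b (-0.79) and the granzyme gene Gzmb (-0.71).

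Among the phosphatases that act at the receptor itself, Ptprc and its partner Ptprcap were the most abundant. Ptprc encodes CD45, which frees Lck for signaling by removing an inhibitory phosphate. It was at 944 and 956 CPM in isotype and Skint1 antibody DETCs, a log2 ratio of 0.02 (-0.01 to 0.05). Ptprcap was at 499 and 462 CPM, a log2 ratio of -0.11 (-0.16 to -0.07). Ptpn22, whose product dephosphorylates Lck and Zap70, was at 192 and 177 CPM, a log2 ratio of -0.12 (-0.19 to -0.04). The intervals of Ptprcap and Ptpn22 lay below 0, and both ratios lay within the range that holds 95% of all genes. With at most 5% mitochondrial UMIs both intervals spanned 0, at -0.06 (-0.19 to 0.06) for Ptpn22 and -0.05 (-0.13 to 0.02) for Ptprcap. Of the 7 members at 50 CPM or more, 4 (Ptpn6, Ptpn2, Ptpn22 and Ptprcap) had an interval below 0 and 0 above, whereas 23.98% of all genes at that level had one below 0 and 12.7% above. This contrast chose the list, so nothing is read from that count.

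Ptpn11, which encodes SHP-2 and is the closest relative of Ptpn6 in the sequences above, was at 52.9 and 50.5 CPM. Its log2 ratio was -0.07 (-0.20 to 0.07), so a difference of the size seen for Ptpn6 lay outside its interval. Ptpn2 and Ptpn1 encode related enzymes that act on cytokine receptor kinases. Ptpn2 was at 107 and 92.1 CPM, a log2 ratio of -0.22 (-0.32 to -0.12), the second lowest of the list and rank 139 among the 2852 genes. Ptpn1 was at 306 and 303 CPM, a log2 ratio of -0.02 (-0.07 to 0.04).

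The remaining enzymes were low in DETCs. Ptpn7, which acts on MAP kinases, was at 29.9 and 27.8 CPM, a log2 ratio of -0.10 (-0.29 to 0.08). Ptpn18, a phosphatase of the PEST group, was at 12.3 and 13.1 CPM, a log2 ratio of 0.09 (-0.19 to 0.38).

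Over the other 8 members the DETC log2 ratios ran from -0.22 to 0.09 with a median of -0.08, beside -0.03 for all genes. Of the 7 members at 50 CPM or more, 1, Ptpn6, was lower by a log2 ratio of 0.5 or more, against 0.491% of all genes tested, and 0 were higher by as much, against 0.0701%. The list was chosen on this contrast, so nothing is read from that count. The differences between members are likewise a description, since Ptpn6 was picked for its low ratio. The Ptpn6 log2 ratio minus that of Ptpn2, the nearest, was -0.75 (-0.89 to -0.61). Against Ptpn11 the difference was -0.90 (-1.07 to -0.73), and against Ptpn18, the farthest, it was -1.06 (-1.36 to -0.76). In terms of the same UMIs without the class total, Ptpn6 made up 6.67% (6.40 to 6.94; Clopper-Pearson) of the UMIs of the 9 genes in isotype DETCs and 3.62% (3.44 to 3.81) in Skint1 antibody DETCs, a difference of -3.04 percentage points (-3.37 to -2.72; Newcombe).

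**Figure D1:**
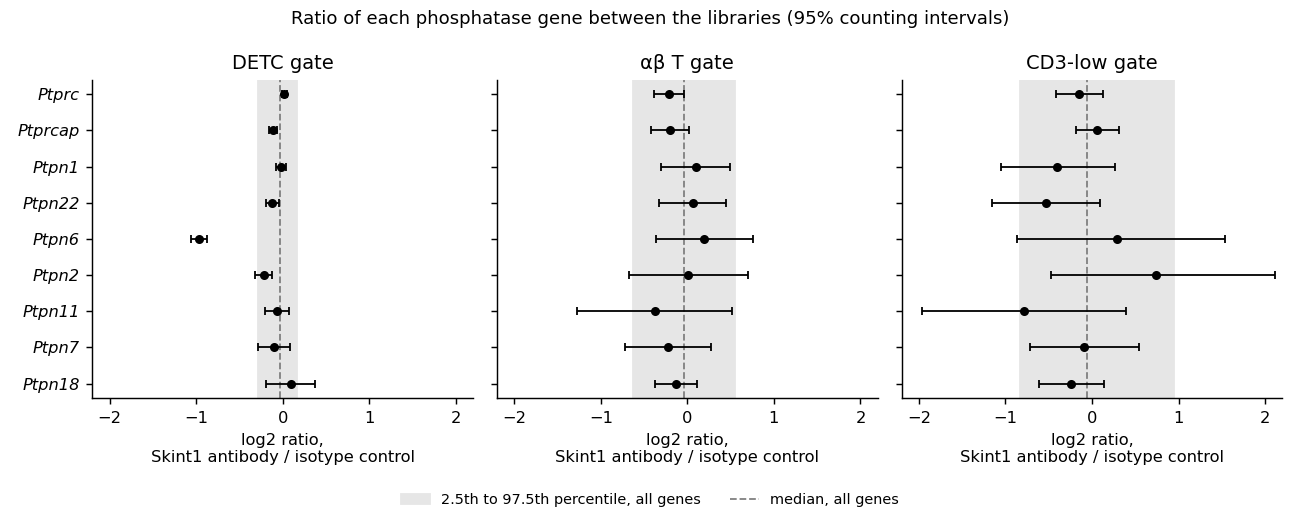
Log2 ratio (x axis, Skint1 antibody over isotype control) of the 9 genes (y axis, in order of isotype DETC level) in the 3 cell classes; points are ratios of CPM, bars 95% counting intervals, the shaded band the central 95% of all genes at 50 CPM or more and the dashed line their median. In DETCs Ptpn6 (-0.97) lies outside the band and the other 8 points lie inside it, whereas in the other classes every Ptpn6 interval spans 0.

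Fewer DETCs had a Ptpn6 UMI in the Skint1 antibody library. With every cell thinned to 2000 UMIs, 785 of 3410 isotype DETCs (23.0%, 21.6 to 24.5) and 591 of 4743 Skint1 antibody DETCs (12.5%, 11.5 to 13.4) had a Ptpn6 UMI, after leaving out 134 and 202 shallower cells. The difference was -10.6 percentage points (-12.3 to -8.87), and -15.5 without thinning. Cells with 2 UMIs made up 4.49% and 1.43%, and cells with 3 or more 1.06% and 0.316%. The mean per thinned cell was 0.301 and 0.147 UMIs, and the mean per cell with a UMI was 1.31 and 1.18. Before thinning, no DETC held more than 9 Ptpn6 UMIs in the isotype library or 7 in the Skint1 antibody library. The 10 highest cells held 3.34% and 3.69% of all Ptpn6 UMIs, and the highest 10% of cells held 48.8% and 59.97%. Such shares rise by arithmetic when fewer cells have a UMI, here 37.4% and 21.8% before thinning. They were therefore not read as a difference in concentration.

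In the same thinned cells the differences of the other members were smaller in percentage points, which are not comparable between genes. The isotype shares of Ptpn18 (2.14%), Ptpn7 (5.10%) and Ptpn11 (9.21%) were too small to fall by the 10.6 points of Ptpn6. That of Ptprc, 81.5%, was near its ceiling. The difference in the share with a UMI was -3.39 percentage points (-5.55 to -1.22) for Ptprcap, -2.40 (-4.10 to -0.73) for Ptpn2 and -1.28 (-3.30 to 0.72) for Ptpn22. It was 1.31 (-0.36 to 3.01) for Ptprc and between -0.26 and 0.54 for Ptpn1, Ptpn7, Ptpn11 and Ptpn18, with intervals that all span 0. Keratinocyte-marker cells held no Ptpn6 UMI but numbered only 2 and 13, too few to gauge the background. Barcodes with 1 to 100 UMIs, which hold free RNA, had Ptpn6 at 86.4 and 58.9 CPM. If all keratin UMIs in DETCs came from such RNA, free RNA would supply 2.98 and 1.76 Ptpn6 CPM there, or 1.95% and 2.25% of the DETC level. By the same reckoning it would supply 19.2% and 12.1% of the Ptpn18 level.

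**Figure D2:**
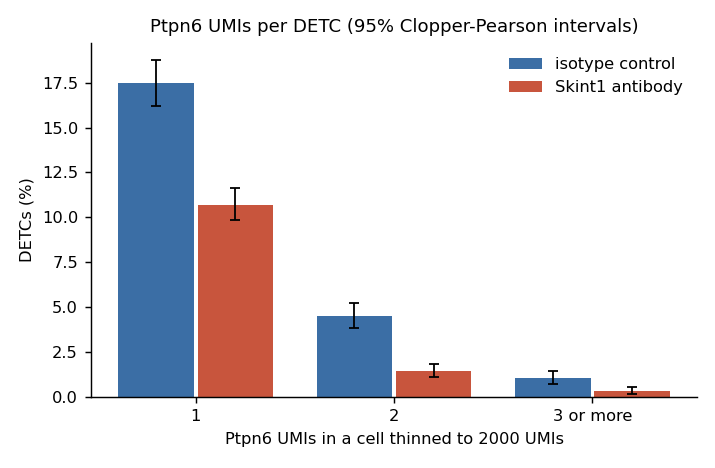
Percentage of DETCs (y axis) with 1, 2 or at least 3 Ptpn6 UMIs (x axis) after each cell was thinned to 2000 UMIs; bars are the isotype control (3410 cells) and Skint1 antibody (4743 cells) libraries and error bars Clopper-Pearson 95% intervals. The Skint1 antibody bars are lower in each category.

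In the other gates the Ptpn6 ratio was not distinguishable from 0 at their depth. In the αβ T gate Ptpn6 was at 63.7 CPM (47.4 to 83.7; 51 UMIs) under isotype control and 72.9 (55.8 to 93.7; 61 UMIs) under Skint1 antibody, with a log2 ratio of 0.20 (-0.37 to 0.76). In the CD3-low gate it was at 26.1 (10 UMIs) and 31.8 (21 UMIs) CPM, a log2 ratio of 0.29 (-0.86 to 1.54). The DETC ratio minus the αβ T ratio was -1.16 (-1.74 to -0.59), and minus the CD3-low ratio it was -1.25 (-2.51 to -0.10). The direction in these gates was not stable. The CD3-low ratio was -0.39 (-1.02 to 0.24) without the upper gene limit, -0.41 with stricter gates and -0.16 with looser gates, and the αβ T ratio was -0.19 (-1.03 to 0.64) with at most 5% mitochondrial UMIs. The αβ T result also depends on leaving out cells with a Trdv4 UMI. With those let in, its log2 ratio was -0.74 (-1.04 to -0.43). The cells that make this difference, 181 and 316 cells with both a Trac and a Trdv4 UMI, had Ptpn6 at 179 and 74.9 CPM, a log2 ratio of -1.26 (-1.64 to -0.89). None of them is in the DETC gate, which bars Trac, and their Ptpn6 levels lay close to those of DETCs in both libraries.

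The other members in the αβ T gate had log2 ratios between -0.37 and 0.10. Of the 7 members at 50 CPM or more there, 0 were past a log2 ratio of 0.5 in either direction, against 5.56% of all genes lower and 3.05% higher. This count depended on the filters. Ptprcap was at -0.58 (-0.95 to -0.22) with at most 5% mitochondrial UMIs. With looser gates, which let in Trdv4, Ptpn7 was at -0.61 (-1.01 to -0.21) and Ptpn18 at -0.47 (-0.69 to -0.25). Ptprc was at 717 and 617 CPM, a log2 ratio of -0.22 (-0.39 to -0.04), and its DETC ratio was higher than this by 0.24 (0.06 to 0.41). With Trdv4-positive cells let in, the αβ T ratio of Ptprc was -0.03 (-0.13 to 0.08), close to its DETC ratio. In the CD3-low gate, 1 of 6 such members, Ptpn22 (110 and 75.8 CPM, -0.53, -1.15 to 0.09), was lower by that much, against 11.2% of all genes, and 0 were higher, against 7.84%. These shares are near the background and, with 10 to 377 UMIs behind each Skint1 antibody or isotype level of that gate except the 8 of Ptpn2, smaller differences were not detectable at this depth.

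**Figure D3:**
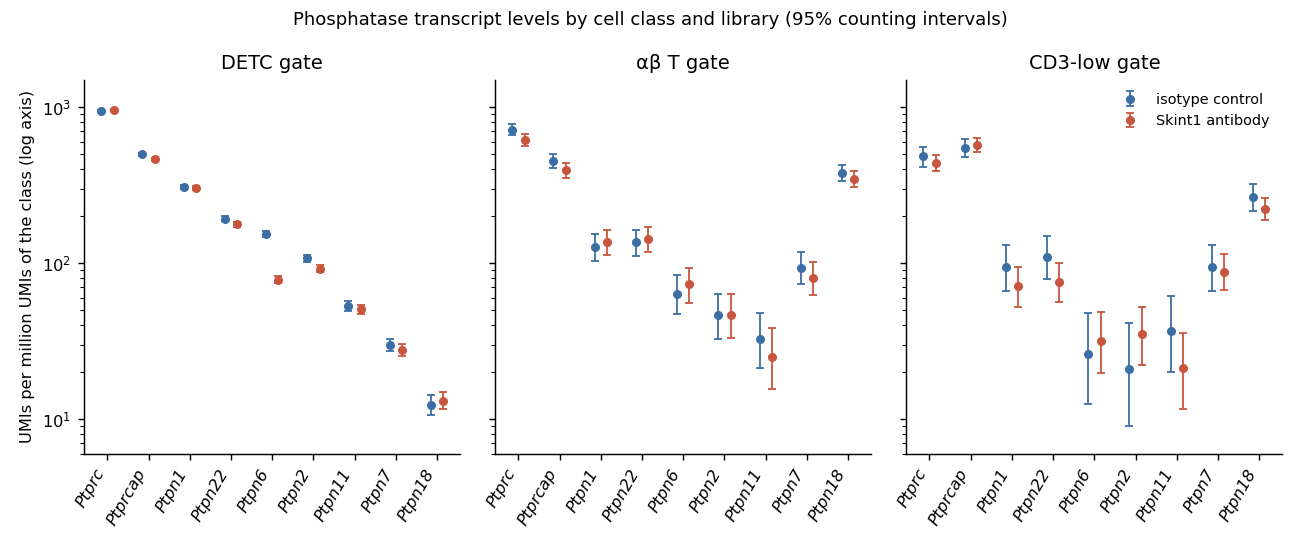
Level of the 9 genes (y axis, CPM, log axis) in the DETC, αβ T and CD3-low gates, by library; bars are exact Poisson 95% intervals. The Ptpn6 points of the libraries separate in DETCs (153 and 78.3) and overlap in the other gates, and Ptpn18 is lowest in DETCs and among the higher genes elsewhere.

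Several members differed more between classes than between libraries. Ptpn18 was at 12.3 and 13.1 CPM in DETCs but 378 and 346 in αβ T cells, 30.8-fold and 26.4-fold higher, and at 264 and 223 in the CD3-low gate, 21.5-fold and 17.0-fold higher. Thinned to 2000 UMIs, 2.14% and 1.88% of DETCs had a Ptpn18 UMI, against 48.9% and 52.0% of αβ T cells. Ptpn7 was also lower in DETCs, 3.13-fold and 2.88-fold below αβ T cells and 3.15-fold and 3.16-fold below the CD3-low gate.

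Ptpn1 was higher in DETCs, 2.40-fold and 2.22-fold above αβ T cells. Ptpn2 was 2.32-fold and 1.98-fold above them, and Ptpn11 1.63-fold and 2.01-fold. Ptpn6 itself was 2.40-fold above αβ T cells under isotype control (log2 1.27, 0.87 to 1.70) and 1.07-fold under Skint1 antibody (log2 0.10, -0.27 to 0.50). The Ptpn6 level of DETCs thus exceeded that of αβ T cells beyond counting error only in the isotype library, and in the CD3-low comparison in both (5.86-fold and 2.46-fold).

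Within DETCs the order of levels in the isotype library was Ptprc, Ptprcap, Ptpn1, Ptpn22, Ptpn6, Ptpn2, Ptpn11, Ptpn7 and Ptpn18, with no overlap of intervals between neighbors. In the Skint1 antibody library Ptpn6 stood below Ptpn2, again without overlap of their intervals (74.3 to 82.4 and 87.8 to 96.6), and the rest kept their order.

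Inside the DETC gate the Ptpn6 ratio was uneven. Among the 3133 and 4146 cells with a Trdv4 UMI, Ptpn6 was at 158 and 73.3 CPM, a log2 ratio of -1.11 (-1.21 to -1.001). Among the 411 and 799 cells without one it was at 113 and 106 CPM, a log2 ratio of -0.08 (-0.36 to 0.20). The first ratio minus the second was -1.02 (-1.32 to -0.72). For 7 of the other 8 members the same difference had an interval that spans 0, and for Ptprcap it was -0.22 (-0.37 to -0.07). Cells without a Trdv4 UMI were shallower, with medians of 3405 and 3312 UMIs against 4077 and 3607.5. They had more UMIs of the dermal γδ markers, 165 and 101 CPM against 59.0 and 64.1, and fewer of the 5 DETC markers other than Trdv4, 6189 and 6741 CPM in sum against 6783 and 7484. Among these, Tcrg-V5 was at 30.0 and 49.1 CPM against 62.2 and 65.0 with Trdv4, Tcrg-C1 at 784 and 857 against 1056 and 1138, and Fcer1g at 2117 and 2441 against 2401 and 2543. Cd7 was at 2670 and 2838 against 2694 and 3154, and Itgae at 588 and 557 against 570 and 583. Trdv4 itself was lower after Skint1 antibody, at 978 and 789 CPM over all DETCs, so the split need not take the same cells in both libraries. The part of depth, of dermal cells and of the Trdv4 level in this difference was not tested.

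The ratio also moved with the number of genes detected per cell. DETCs were put in 3 ranges of genes per cell, with medians of 1121.5 and 1136 genes in the lowest, 1525 and 1477 in the middle and 1946 and 1985 in the highest (isotype and Skint1 antibody). From lowest to highest range the ratio was -1.45 (-1.81 to -1.09), -1.19 (-1.33 to -1.05) and -0.50 (-0.65 to -0.36). In the isotype library the level was similar in the 3 ranges, at 139, 158 and 151 CPM, whereas in the Skint1 antibody library it was 50.9, 69.0 and 106. The same order held when cells were split by Trdv4 as well. With a Trdv4 UMI the log2 ratios were -1.53, -1.29 and -0.71. Without one they were -1.20 (-1.96 to -0.43), -0.38 (-0.80 to 0.05) and 0.62 (0.17 to 1.10), so that in the 85 and 156 largest cells without Trdv4 the Ptpn6 level was higher in the Skint1 antibody library, at 176 against 115 CPM. These splits were chosen after other results of the data were known.

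No other member showed this gradient beyond counting error except Ptprc, whose ratio in the smallest cells minus that in the largest was -0.16 (-0.27 to -0.04), against -0.95 (-1.34 to -0.56) for Ptpn6. For Ptpn18 this difference was -1.04 (-2.18 to 0.15), as large as that of Ptpn6 but from 13 and 22 UMIs in the smallest cells. Ptpn18, at 13.5 and 20.1 CPM in the largest DETCs, had a log2 ratio of 0.57 (0.16 to 0.98) there. By mitochondrial share the Ptpn6 ratio was -0.75 (-0.92 to -0.59) under 5% and -1.08 (-1.20 to -0.96) from 5 to 12%. The second minus the first was -0.33 (-0.53 to -0.12). Ptpn1 (-0.15, -0.27 to -0.04) and Ptprc (-0.11, -0.18 to -0.04) moved the same way, and the intervals of the remaining members spanned 0. In the 97 and 90 cycling cells the Ptpn6 ratio was -0.43 (-1.05 to 0.19), and in the others -0.98 (-1.08 to -0.89).

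**Figure D4:**
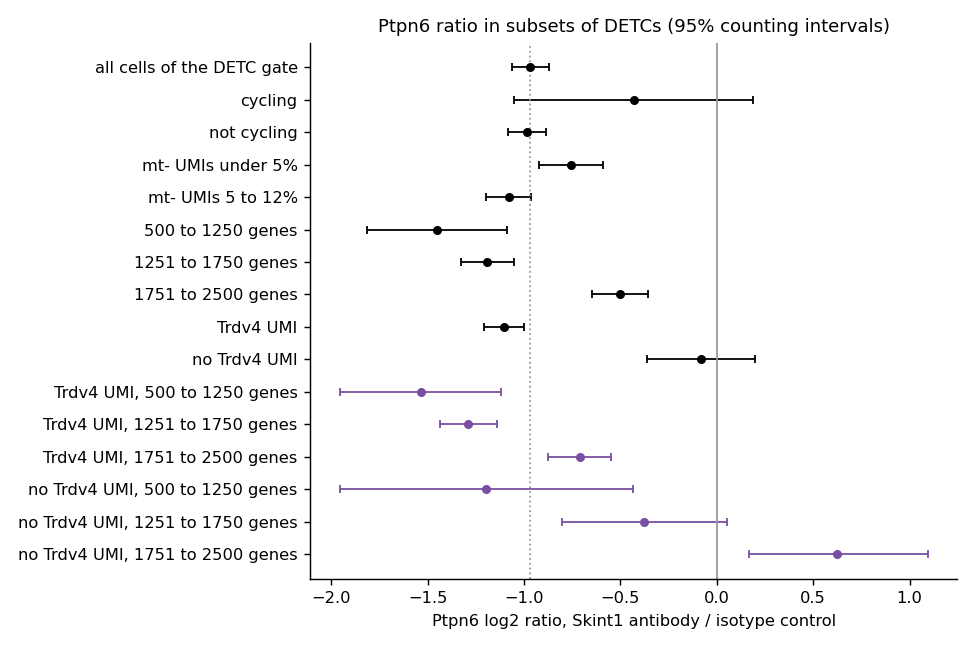
Ptpn6 log2 ratio (x axis, Skint1 antibody over isotype control) in all DETCs and in subsets (y axis) by cycling genes, mitochondrial UMIs, genes per cell and Trdv4, with Trdv4 and genes per cell crossed in purple; bars are 95% counting intervals, the solid line marks 0 and the dotted line the value of all DETCs. The ratio is higher in ranges with more genes, and in cells without a Trdv4 UMI than in those with one, and is above 0 (0.62) in the largest cells without Trdv4.

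The wider network around the family was described by the same counts, to be read against the 0.491% of all genes that were lower and the 0.0701% that were higher by a log2 ratio of 0.5 or more in DETCs. At such shares a count of 0 in a list of this size is near the background. Of 29 further classical phosphatase genes counted, 7 reached 50 CPM in DETCs, and 0 of them were past a log2 ratio of 0.5, with ratios from -0.15 (Ptpra) to 0.14 (Ptprs) and a median of -0.02. In isotype and Skint1 antibody DETCs the most abundant were Ptprs (174 and 191 CPM), Ptpre (134 and 137), Ptpra (131 and 119), Ptprf (80.8 and 76.6) and Ptpn5 (65.4 and 66.9). The kinases these enzymes oppose gave 5 of 16 at that level, 0 past 0.5 and a median of -0.08. Zap70, the kinase that binds the phosphorylated TCR complex, was lowest at 102 and 81.6 CPM (-0.32, -0.42 to -0.22). Lck was at 335 and 333 CPM (-0.01). Jak1 was at 560 and 538 CPM and Fyn at 55.9 and 52.8. Of 24 adaptor genes 14 reached the level, 0 were past 0.5, and their median was -0.02. Dok2, a negative regulator, was highest at 46.5 and 57.6 CPM (0.31, 0.17 to 0.45). It reached the pooled level through its Skint1 antibody value. The ratios of Zap70 and Dok2 lay outside the central range of all genes given above (-0.28 to 0.17), Zap70 below it and Dok2 above it. The most abundant adaptors were Skap1 (456 and 493 CPM), Lat (398 and 385), Grap2 (188 and 192), Themis (166 and 175) and Sit1 (141 and 157).

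Of 27 inhibitory receptor genes, many of which carry docking sites for SHP-1, 2 reached that level, Cd96 (304 and 279 CPM, -0.12) and Cd244 (406 and 415, 0.03). Below it, Havcr2, which encodes Tim-3, was at 19.8 and 10.7 CPM (-0.89), and Lag3 at 10.8 and 7.97. Lair1, an inhibitory receptor that binds collagen, was at 1.64 and 4.12 CPM from 24 and 77 UMIs.

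Ptpn6 lies at chr6:124720707-124738714 on the minus strand of GRCm38. The nearest gene upstream, Grcc10, ends 469 bp from it on the same strand, and its level was also lower after Skint1 antibody, at 108 and 80.2 CPM, with a log2 ratio of -0.43 (-0.53 to -0.32) and rank 22 of 2852. The next gene on that side, Atn1, 3830 bp from Ptpn6, was at 33.6 and 33.3 CPM (-0.01, -0.19 to 0.16). On the other side Phb2 was at 123 and 111 CPM (-0.14, -0.24 to -0.05), Emg1 at 113 and 113 (-0.01, -0.10 to 0.09), and Lpcat3 at 20.5 and 17.4 (-0.24, -0.47 to -0.0057). Gm20531, annotated antisense within Ptpn6, had 9 and 3 UMIs. Over the 6 groups of class and library, the genes whose log2 level followed that of Ptpn6 most closely included Brd2 (Pearson r 0.98), Spty2d1 (0.98), Pik3r1 and Vgll4 (each 0.97), among 1799 genes at 50 CPM or more in every group. These groups share libraries and differ mainly by class, so the values are a description. In isotype and Skint1 antibody DETCs, Brd2 was at 130 and 120 CPM and Spty2d1 at 282 and 198. Pik3r1 was at 196 and 154 and Vgll4 at 193 and 158, so all of these differed less between libraries than Ptpn6. The Ptpn6 levels of the CD3-low gate rest on 10 and 21 UMIs.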

How the data were processed

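Single-cell RNA was measured in 2 libraries, 1 per treatment. CellRanger 3.0.2 was run by the authors on 10x Genomics 3′ libraries with an mm10 (GRCm38) index. The deposited matrices hold its unnormalized UMI counts for each gene in all barcodes, empty ones included. With 1 library per treatment, intervals cover counting error only.

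The members and gene lists were chosen with earlier results of these data known. Barcodes were filtered and gated as stated in the results, UMIs were summed per class and library, and levels are per 1000000 UMIs of the class, computed with scipy 1.17.1, pandas 2.3.3 and numpy 2.4.6 (Python 3.11.15). Cells were thinned by drawing 2000 UMIs without replacement. No doublet caller was run. The limit of 2500 genes and 1 alternative, which leaves out cells with markers of other lineages, bear on doublets. The interval method was tried on simulated data of the DETC comparison with 2852 genes. The intervals of all 200 changed genes lay on the right side of 0, and 94.4% of intervals held the true value. This check bears on counting error only, so it cannot show how the intervals stand to differences between mice or libraries.

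Named genes are every member, the 5 genes of each list with most UMIs in DETCs, and the genes with the lowest and highest ratio of each list. Also named are the genes next to Ptpn6 in order of ratio, its 5 closest genes by correlation, and its neighbors on the chromosome, which were added after the data were seen. Values of 1 gene that this rule names are not reported here. Alternatives changed the mitochondrial and gene limits, the gates, the lineages left out, the scaling, the weight of cells, the level and ratio thresholds, and the depth of thinning.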

Additional observations from a re-analysis of the deposited data

Results flagged for a closer look

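For 3 results the ratio of Skint1 antibody over isotype control stood apart between cell classes by more than counting error. The Ptpn6 log2 ratio of DETCs minus that of αβ T cells was -1.16 (-1.74 to -0.59), and minus that of the CD3-low gate it was -1.25 (-2.51 to -0.10). Ptpn6 was picked for its low DETC ratio, and both differences depend on the gates. The αβ T ratio was -0.74 (-1.04 to -0.43) with looser gates, an interval that holds the DETC value of -0.97, and the CD3-low ratio was -0.41 (-2.39 to 1.81) with stricter gates. For Ptprc, DETCs minus αβ T cells gave 0.24 (0.06 to 0.41), but with looser gates the αβ T ratio of Ptprc was -0.03 (-0.13 to 0.08), beside 0.02 in DETCs. With 1 library per treatment, none of these differences between classes was tested.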

How the results depend on the processing

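The Ptpn6 log2 ratio in DETCs lay between -1.11 and -0.76 over 8 alternatives, below 0 in all of them. It was -0.76 with at most 5% mitochondrial UMIs, -1.11 with stricter gates and -1.09 with every cell weighted alike. The Ptpn6 share of member UMIs differed by -2.48 points with at most 5% mitochondrial UMIs and -3.42 with stricter gates, and the share of thinned DETCs with a Ptpn6 UMI by -8.66 with at most 5% mitochondrial UMIs, -5.94 thinned to 1000 UMIs and -15.5 without thinning. The αβ T ratio of Ptpn6 was -0.74 with looser gates, which let in Trdv4, and -0.19 with at most 5% mitochondrial UMIs. The CD3-low ratio was 1.70 (-1.46 to 7.27) with at most 5% mitochondrial UMIs, and -0.39, -0.41 and -0.16 without the upper gene limit, with stricter and with looser gates. The number of genes lower in DETCs, 14, was 23 at a level of 20 CPM, 7 at 100 and 57 at a log2 ratio of 0.3; the sets are nested by construction. The median of the other 8 members ran from -0.11 to -0.05. Of 192 further values of these 8 genes, 180 lay within their counting intervals and 12 outside, among them Ptprcap in DETCs and Ptprc in the αβ T gate. Apart from the nested counts, the cause was not tested. Depth limits the CD3-low values, which rest on 10 and 21 Ptpn6 UMIs. No paired analysis was possible because each treatment has 1 library.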
